A study of Mus musculus with 26 samples.

Results

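CD34- CD103- cells that had been differentiated with erythropoietin (Epo), on 3 arrays, were compared with CD34+ CD103- cells, on 4 arrays. Both groups were subfractions of EML cells, a mouse haematopoietic progenitor line maintained with stem cell factor, and the comparison was chosen from the sample titles to ask what still sets Epo-treated CD34- cells apart from CD34+ cells. It used 7 of the 26 arrays of the study and covered 27360 genes, of which 16794 had a symbol. A further 4 arrays of CD34- CD103- cells without Epo lay on the same slides and give the level of untreated cells of that label. They are separate samples, and whether the Epo-treated cells had started from their level was not tested. In the text CD34+ arrays, CD34- arrays and Epo arrays stand for these 3 groups.

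The study measured total RNA of 8 EML populations on 1-colour Agilent arrays in 3 array sets, and the present set was the third, with 11 arrays. Itgae encodes the integrin chain CD103. The medium of all populations held horse serum and a supply of stem cell factor, and within this array set only the group named for Epo was treated with it. CD34 status and Epo treatment therefore differ together between the groups and cannot be told apart within this comparison. The sources used here give neither the dose and duration of Epo nor the gates, and do not say whether cells were sorted again after treatment. The labels describe the samples as replicates of a fraction of 1 cell line and do not say that they came from separate cultures, so p-values measure only the spread between these samples, which may be technical.

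Epo binds its receptor on erythroid progenitors and, through the kinase Jak2 and the factor Stat5, keeps them alive while they mature. Commitment to the red cell lineage runs through the factors Gata1 and Klf1, which switch on genes of heme, haemoglobin and the red cell surface. Gata1 also serves mast cells, basophils and megakaryocytes, whereas Gfi1 and Spi1 belong to the granulocyte and macrophage side of the same progenitors. CD34 is a sialomucin of early haematopoietic cells that is lost as they mature.

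Levels are log2 processed signals relative to the 75th percentile of the array, so that 0 is a signal at that percentile, and they are not compared between probes. Differences are log2 values, Epo minus CD34+ unless another pair is named, with the standard error and limma's 2-sided Benjamini-Hochberg adjusted p. A gene was called at an adjusted p under 0.05. For a gene that no array of one group measured well above background, the fold is given as "at least". The reference for it was, per array, the weakest probe still well above background, or the gene's own signal where that was higher. The 75th percentile lay between 727.8 and 1228 over the 11 arrays, 83.3% to 87.6% of probes were well above background, and no spot was saturated. Within groups, the correlation between arrays ran from r = 0.984 to r = 0.996. Epo array 10 stood apart: it had the lowest 75th percentile and 446 spots left out for uneven or outlying signal, against 48 to 224 on the others. On it 76 probes were not above background and lay over 3 log2 units under the lowest of the 10 other arrays, on all of which they were above background. Among them were the probes used for 57 of the genes tested. The 76 probes sat at rows 437 to 531 and columns 20 to 56 of the array, and CD34- array 1 had 63 such probes. Leaving these spots out gave 1461 calls, an alternative added after the data were seen. Of these 57 genes 0 were called with the spots and 1 without them, the integrin chain Itgb5 (-3.82 ± 1.56, adjusted p = 0.236, against -1.14 ± 0.19, adjusted p = 0.00876).

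Of the 27360 genes tested, 1463 (5.35%) were called, 765 (2.8%) higher and 698 (2.55%) lower in the Epo-treated cells than in CD34+ cells. Genes listed here for mast cells and for the red cell surface were among the called genes with the largest rises. They included Csrp3 (4.91), Mcpt2 (4.89), Hdc (4.55), Tspan33 (4.10) and Kel (3.94). The called genes with the largest falls were Wfdc17 (-4.11), a secreted protein of macrophages, and Gfi1 (-2.54), a repressor of the granulocyte lineage. Large fitted differences lay more on the higher side: 155 genes rose and 102 fell at least 2-fold, and 41 rose and 6 fell at least 4-fold. These counts use the fitted value also for the 24 called genes that were off in 1 group, where only a bound holds. Chdh, counted among the 6, has a bound of 1.51-fold. In bulk RNA fewer cells of a type and less RNA per cell cannot be told apart, here and throughout.

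None of the 1463 called genes overlapped between the groups, and the groups did not overlap for 5182 genes (18.9%) in all. The median difference over all genes was 0.04 and the median standard error 0.15. Scaling each array on its 9 spike-in probes instead moved that median to -0.40 and turned the split to 172 higher and 9284 lower calls. The spike-ins stood 2.01, 2.52 and 2.35 above the 75th percentile on Epo arrays 9 to 11 and 1.87, 2.04, 1.65 and 1.83 on CD34+ arrays 5 to 8, and the part of this shift in the results was not tested. The main differences are thus relative to the bulk of the genes on each array. Without array 9 there were 638 calls (358 higher, 280 lower), without array 10 there were 912 (438 and 474) and without array 11 there were 832 (457 and 375). Of the 110 called genes among the 150 followed gene by gene, 91 kept their call whichever of the 7 arrays was left out. Epo arrays lay on slides 1 and 2 and CD34+ arrays on slides 1, 2 and 3. With slide as a block 2021 genes were called, without slide 3 there were 1138, and all 110 genes had the same sign on slide 1 alone and on slide 2 alone. Among the genes described below, the calls of Chdh, Dusp1, Epx, Gcnt2 and Hlf were lost without slide 3. Fitted on the 7 arrays alone, those of Cebpa, Chdh, Gcnt2, Lcn2, Mpo, Oasl2 and Socs3 were lost among them. Spike-in scaling called 12 genes lower that are given in the text as not called, among them Spi1, Stat5a, Cpa3, Slc4a1, S100a8 and S100a9. Normexp moved 13 further called genes by over 1.5 times without ending the call, mostly dim ones such as Kel, Gypc, Tspan33, Wfdc17 and Gfi1, whose values are given with them. The others were Entpd3 (-0.98), Hba-a1 (1.67), Ifi204 (-1.10), Itgam (-0.74), Meis1 (-0.82), Prss34 (0.97), Rec114 (1.46) and Trim30a (-0.69).

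**Figure D1:**
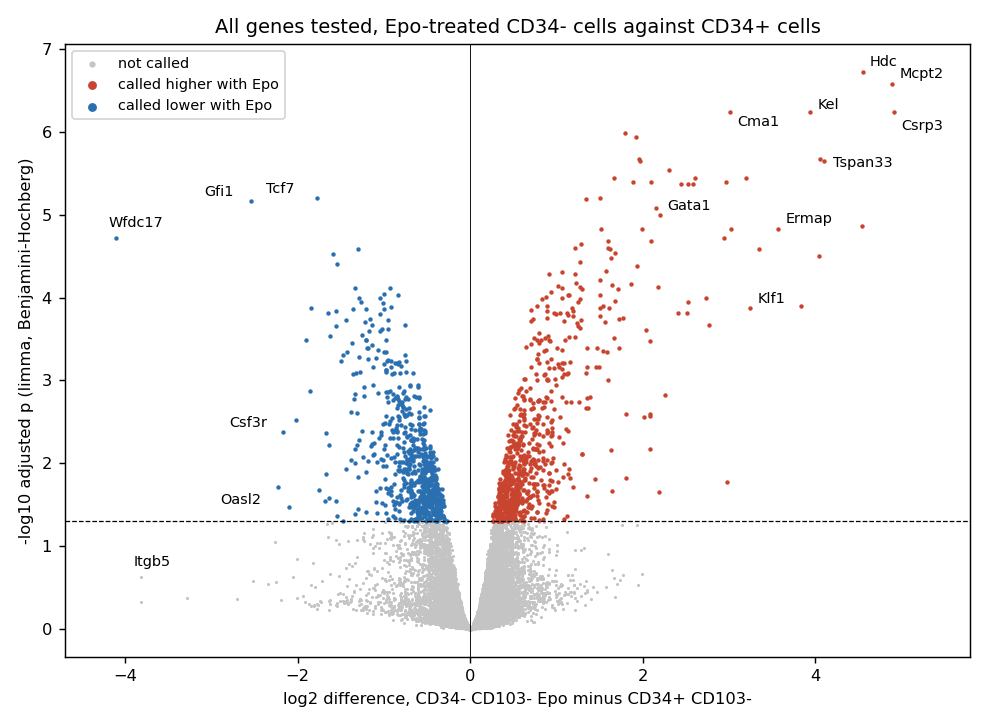
Each point is 1 of the 27360 genes tested, with the log2 difference (Epo minus CD34+) on the x axis and -log10 of the adjusted p on the y axis; red and blue mark the 765 higher and 698 lower calls above the dashed line at an adjusted p of 0.05. Hdc, Mcpt2, Csrp3 and Kel lie at the far upper right, Wfdc17 and Gfi1 at the upper left, and Itgb5, whose spot was dim on Epo array 10 alone, below the line at -3.82.

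The genes of the sorting markers were examined first, since they test the labels. Cd34 stood at 7.05, 6.74, 6.79 and 6.81 on CD34+ arrays 5 to 8 and at 5.51, 5.93 and 5.92 on Epo arrays 9 to 11. It was lower on each Epo array than on each CD34+ array, in the direction of the labels, by -1.06 ± 0.17 (adjusted p = 0.00493, 2.09-fold). The RNA was not absent from the Epo-treated cells: their mean of 5.79 lay above the mean of 5.08 of untreated CD34- cells. This difference of 0.71 was not called (adjusted p = 0.0603). Itgae, the gene of CD103, for which both groups were labelled negative, stood at -1.75, -1.36, -1.79 and -1.91 on the CD34+ arrays and at -0.57, -0.74 and -0.63 on the Epo arrays. It rose by 1.06 ± 0.14 (adjusted p = 0.00161), with no overlap, and was well above background on all 7 arrays although both groups carry the label CD103-. Kit, the receptor of stem cell factor, did not move (0.00 ± 0.12, adjusted p = 0.998). Ly6a, which encodes the stem cell antigen Sca1, fell by 1.35 ± 0.18 on the log2 scale (adjusted p = 0.00169), from 3.50 to 3.76 on the CD34+ arrays to 1.81 to 2.60 on the Epo arrays.

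Gata1, Klf1 and Gfi1b were among the erythroid transcription factors that were higher in the Epo-treated cells. Gata1, the master factor of the lineage, stood at -1.93, -1.76, -1.98 and -2.10 on the CD34+ arrays and at 0.41, 0.19 and 0.19 on the Epo arrays. The 2 groups lay over 1 log2 unit apart, and Gata1 rose by 2.20 ± 0.14 (adjusted p = 1.02e-05, 4.61-fold). Klf1, which switches on red cell genes together with Gata1, stood at -4.21, -3.15, -4.54 and -4.17 on the CD34+ arrays, where array 6 was highest, and at -0.66, -0.81 and -0.84 on the Epo arrays. It rose by 3.25 ± 0.29 (adjusted p = 0.000135, 9.48-fold). Gfi1b, the erythroid counterpart of Gfi1, rose by 1.19 ± 0.11 (adjusted p = 0.000145), and Gata2, a factor of early progenitors and mast cells kept on the list of stem and progenitor genes, by 1.24 ± 0.12 (adjusted p = 0.000201). E2f2, a cell cycle factor of late erythroblasts, rose by 0.64 ± 0.08 (adjusted p = 0.000965), a call that was lost with spike-in scaling (0.19, adjusted p = 0.307).

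Of 20 erythroid transcription factors 6 were called higher (30%, against 2.8% of all genes) and 1 lower (0 lower without array 5, 6, 8, 9 or 11), and their median was 0.27 against 0.04 for all genes; with spike-in scaling 3 were higher and 4 lower and the median turned to -0.18, against -0.40. With slide as a block, fixed or random, 10 were higher and 2 lower. Tal1 (0.31, adjusted p = 0.0745), Lmo2 (0.29, adjusted p = 0.0617) and Nfe2 (0.00, adjusted p = 0.998), partners of Gata1 in its complexes or on its targets, were not called, although Tal1 was with slide as a fixed block (0.26, adjusted p = 0.0413). In the same fit, untreated CD34- cells exceeded CD34+ cells by 2.87 in Gata1, 4.06 in Klf1, 1.22 in Gfi1b and 1.80 in Gata2, where 12.1% of all genes were called either way. Epo-treated minus untreated CD34- cells gave -0.67 (adjusted p = 0.0296), -0.81 (adjusted p = 0.198), -0.03 (adjusted p = 0.904) and -0.56 (adjusted p = 0.0403), where 2.64% of all genes were called. These 2 comparisons share arrays with the main one and are given only side by side. No factor of the 4 was higher in Epo-treated than in untreated CD34- cells. The levels of the Epo-treated cells lay at or between those of the other groups.

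The window of 250 bases before the annotated start was searched, since GATA factors bind AGATAA or TGATAA. The windows printed are examples that hold a match. The windows of Klf1 (chr8:84901732-84901981, plus strand), Ermap (chr4:119189996-119190245, minus strand) and Kel (chr6:41704326-41704575, minus strand), from RefSeq with coordinates on GRCm38.p6, are given in the direction of the gene, with matches to either motif on either strand in capitals.
Klf1: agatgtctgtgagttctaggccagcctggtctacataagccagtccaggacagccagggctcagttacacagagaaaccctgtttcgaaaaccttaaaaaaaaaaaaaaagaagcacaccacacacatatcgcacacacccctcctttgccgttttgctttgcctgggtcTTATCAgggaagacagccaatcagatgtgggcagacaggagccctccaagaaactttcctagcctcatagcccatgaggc
Ermap: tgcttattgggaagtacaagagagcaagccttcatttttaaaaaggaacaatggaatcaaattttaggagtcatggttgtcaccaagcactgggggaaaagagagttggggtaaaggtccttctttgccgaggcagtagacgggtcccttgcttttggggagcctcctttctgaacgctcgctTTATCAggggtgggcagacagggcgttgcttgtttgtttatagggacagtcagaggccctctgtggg
Kel: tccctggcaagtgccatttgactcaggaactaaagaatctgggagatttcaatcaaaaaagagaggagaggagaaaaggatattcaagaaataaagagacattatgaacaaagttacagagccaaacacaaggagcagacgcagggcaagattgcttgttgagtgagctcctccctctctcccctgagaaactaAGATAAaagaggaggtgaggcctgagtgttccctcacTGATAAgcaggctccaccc
The match of Klf1 begins 80 bases before the start, that of Ermap 67 bases, and those of Kel 56 and 19 bases, and the matches do not overlap. Of the 27 genes called higher on the erythroid lists (factors, globins, heme, membrane and blood groups) 21 had a window and 11 of these held a match. Over all, 16.6% of the 32851 windows and 18.8% of the 27025 genes with a window did. A match is a description of the letters and not a bound site.

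Genes of the red cell surface gave large erythroid differences. Kel, the endopeptidase of the Kell blood group, stood at -5.29, -4.98, -5.36 and -5.50 on the CD34+ arrays and at -1.30, -1.34 and -1.40 on the Epo arrays. Within each group the arrays lay within 1 log2 unit of each other, and Kel rose by 3.94 ± 0.15 (adjusted p = 5.83e-07, 15.3-fold). Ermap, an erythroid membrane protein of the Scianna blood group, was not well above background on any CD34+ array (-6.93, -6.45, -6.40 and -6.40) and was on all 3 Epo arrays (-2.57, -3.12 and -3.23). It was at least 11.1-fold higher (adjusted p = 1.47e-05). Gypc, of glycophorin C, rose by 2.53 ± 0.14 (adjusted p = 4.25e-06). Rhag, the Rh-associated glycoprotein, rose by 2.18 ± 0.18 (adjusted p = 7.42e-05), Art4 of the Dombrock group by 1.60 ± 0.20 (adjusted p = 0.000989) and Icam4 of the Landsteiner-Wiener group by 1.56 ± 0.15 (adjusted p = 2.00e-04).

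Of 21 blood group genes 7 were called higher (33.3%) and 3 lower (1 without array 5, 8, 9 or 11), with a median of 0.18; spike-in scaling left 7 higher, gave 9 lower and turned the median to -0.27. Slc14a1, the urea transporter of the Kidd group, went the other way, from 3.51 to 3.69 on the CD34+ arrays to 2.65 to 2.74 on the Epo arrays (-0.93 ± 0.08, adjusted p = 7.73e-05). Rhd was not well above background on any of the 7 arrays and has no fold (it was called without array 10, adjusted p = 0.0482), although it was on all 4 arrays of untreated CD34- cells. Of the surface genes, Ermap (Epo minus CD34- -2.33, adjusted p = 0.000252) and Kel (-1.53, adjusted p = 0.000279) were higher in untreated than in Epo-treated CD34- cells. Rhag (-0.41, adjusted p = 0.273) did not pass that test. With the background taken by normexp, which compresses dim signals, the calls of Ermap (1.07, adjusted p = 0.0821), Rhag (0.86, adjusted p = 0.0655) and Art4 (0.57, adjusted p = 0.229) were lost, 4 of the 21 were called higher, and Kel and Gypc came to 2.13 and 1.52.

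**Figure D2:**
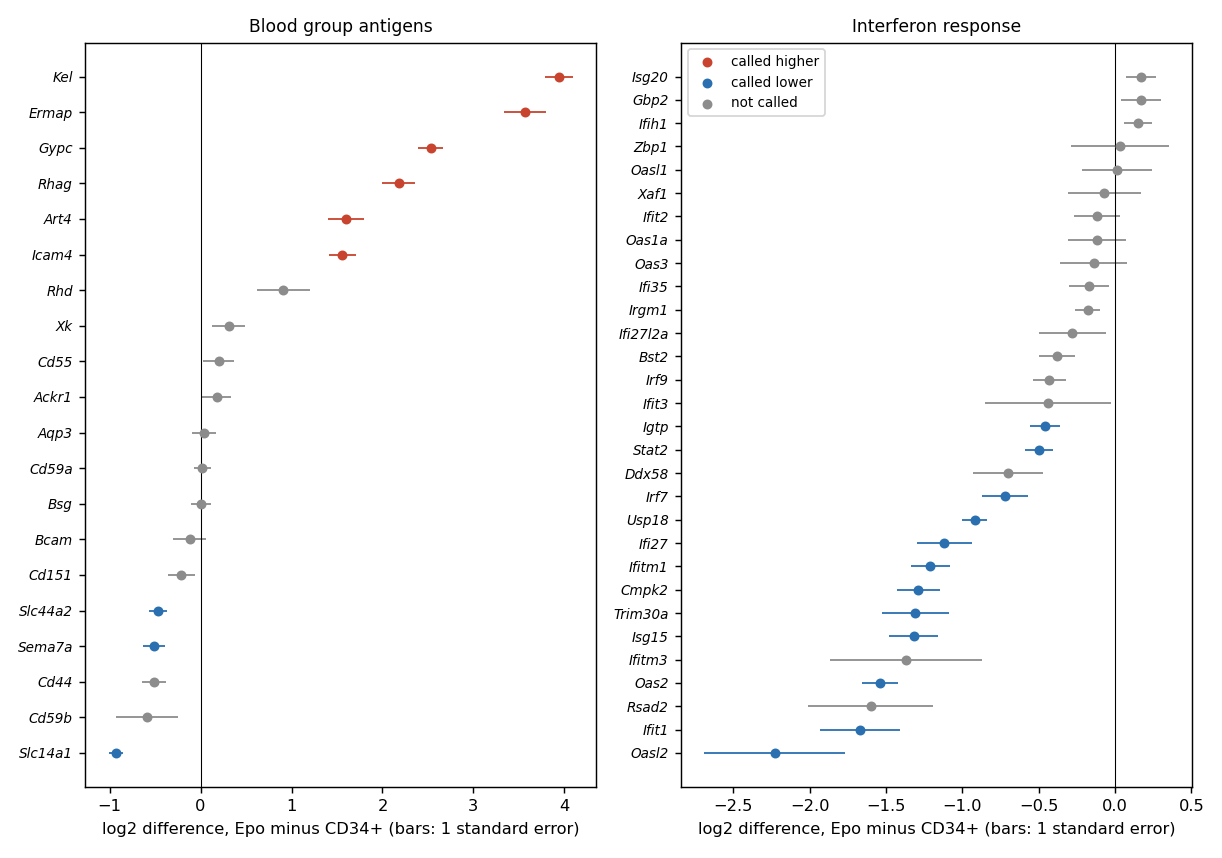
The log2 difference (Epo minus CD34+) with 1 standard error is drawn for 20 of the 21 blood group genes on the left and 30 of the 31 interferon response genes on the right, in red where called higher, in blue where called lower and in grey where not called. Kel and Ermap (whose fitted value is shown although only a bound holds) lead the left panel, and on the right 12 genes from Igtp to Oasl2 lie below 0 in blue with none in red.

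Among 17 genes of the red cell membrane and its skeleton 6 were called higher (35.3%) and 0 lower; with spike-in scaling there were 4 and 7, and the median went from 0.15 to -0.29. Tspan33, a tetraspanin of erythroblasts, stood at -5.91, -5.49, -5.43 and -5.44 on the CD34+ arrays and at -1.31, -1.52 and -1.56 on the Epo arrays, 4.10 ± 0.20 higher (adjusted p = 2.27e-06, 17.2-fold). Every Epo array lay above all CD34+ arrays at this probe. CD34- minus CD34+ was 5.4 at the same probe, and Epo minus CD34- -1.3 (adjusted p = 0.00549). Another probe of Tspan33 gave 0.84 and the mean of both 2.47 (adjusted p = 2.64e-05), and with normexp the probe used gave 2.15. Membrane genes of late erythroblasts did not show this: Slc4a1, the anion exchanger band 3, differed by -0.01 ± 0.12 (adjusted p = 0.988), Ank1, its ankyrin anchor, by 0.04 ± 0.12 (adjusted p = 0.934) and Epb42, band 4.2, by 0.36 ± 0.13 (adjusted p = 0.154). On Epo arrays Slc4a1 stood at -3.09, -2.79 and -2.74, within or next to the CD34+ range of -3.03 to -2.69. Ank1 with spike-in scaling was called lower (-0.41, adjusted p = 0.0402).

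Of 19 heme genes measured 8 were called higher (42.1%) and 0 lower, with a median of 0.32; with spike-in scaling 3 were higher and 2 lower and the median was -0.13. Blvrb, a biliverdin reductase of red cells, stood at 1.08, 0.85, 1.28 and 0.81 on the CD34+ arrays and at 2.82, 2.40 and 2.73 on the Epo arrays, 1.65 ± 0.13 higher (adjusted p = 7.10e-05). Hmox1, heme oxygenase, rose by 1.12 ± 0.14 (adjusted p = 0.000837). The synthesis enzymes Alad and Cpox rose, Alad by 0.95 ± 0.15 (adjusted p = 0.00455) and Cpox by 0.80 ± 0.08 (adjusted p = 0.000357). Alas2, the erythroid enzyme of the first step, stood at -5.33, -4.92, -5.44 and -5.22 on the CD34+ arrays against -4.34, -4.16 and -4.38 on the Epo arrays, 0.94 ± 0.16 higher (adjusted p = 0.00627). Fech, which inserts the iron, was not called (0.32, adjusted p = 0.208). In untreated CD34- cells, CD34- minus CD34+ was 2.13 in Blvrb, 0.41 in Hmox1, 1.07 in Alad and 1.23 in Alas2. Beside it, Epo minus CD34- was -0.49 (adjusted p = 0.0916), 0.71 (0.0222), -0.12 (0.715) and -0.3 (0.375). Of these, only Hmox1 was called, as higher in Epo-treated than in untreated CD34- cells. The calls of Alad (adjusted p = 0.0547) and Cpox (0.125) were lost with spike-in scaling and that of Alas2 with normexp (0.25, adjusted p = 0.907).

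Of 7 measured globin genes 2 were called higher (28.6%) and 0 lower, with a median of 0.36; spike-in scaling left 2 higher, gave 1 lower and a median of -0.09. Hbb-bh1, an embryonic beta-like globin, stood at -3.30, -3.22, -3.65 and -3.47 on the CD34+ arrays and at -0.34, -1.23 and -0.35 on the Epo arrays, 2.77 ± 0.27 higher (adjusted p = 0.000212). Hba-a1, an adult alpha globin, rose by 2.51 ± 0.23 (adjusted p = 0.000152), from -3.60 to -3.20 to -1.12 to -0.53. Hba-a1 has a near-identical copy, and the probe could read both. Hbb-bt, an adult beta globin, was not called (0.36 ± 0.15, adjusted p = 0.246), nor was the embryonic Hbb-y (0.88 ± 0.23, adjusted p = 0.0586), which was called without array 10 (1.14, adjusted p = 0.0234). Hba-x, the embryonic zeta globin, differed by -0.01 ± 0.23 (adjusted p = 0.995). The carbonic anhydrases Car1 and Car2, abundant red cell enzymes, rose by 2.04 ± 0.21 (adjusted p = 0.00025) and 1.86 ± 0.15 (adjusted p = 6.91e-05), with CD34+ arrays at -0.50 to 0.25 and -2.90 to -2.72 and Epo arrays at 1.76 to 2.06 and -1.20 to -0.68. They are among the 7 of 32 genes for terminal maturation and autophagy that were called higher (21.9%; 3 without array 9), with 0 lower, a median of 0.20 and, with spike-in scaling, 2 higher, 10 lower and -0.25. In untreated CD34- cells, CD34- minus CD34+ was 3.71 in Hbb-bh1, 3.08 in Hba-a1, 3.07 in Car1 and 2.61 in Car2. Beside it, Epo minus CD34- was -0.94 (adjusted p = 0.11), -0.57 (0.245), -1.03 (0.0276) and -0.75 (0.0271).

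Of 17 iron genes 2 were called higher (11.8%; 1 without array 9 or 11) and 0 lower, with a median of 0.08 (0 and 5, and -0.36, with spike-in scaling). Slc11a2, an iron importer of endosomes, rose by 0.89 ± 0.08 (adjusted p = 0.000126); its 3 probes ranged from -0.05 to 0.89 with a mean of 0.44, and spike-in scaling gave 0.45 (adjusted p = 0.0629). Tfrc, the transferrin receptor, which erythroblasts carry in quantity, differed by -0.02 ± 0.11 (adjusted p = 0.961). Its levels of 3.97 to 4.16 on the Epo arrays lay inside the CD34+ range of 3.84 to 4.23.

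The Epo receptor itself, Epor, stood at -0.84, -0.48, -1.21 and -0.65 on the CD34+ arrays and at 0.95, 0.91 and 0.90 on the Epo arrays. All Epo arrays lay above all CD34+ arrays, and Epor rose by 1.72 ± 0.19 (adjusted p = 0.000408, 3.28-fold). Cish, a Stat5 target that damps the receptor, rose by 0.82 ± 0.09 (adjusted p = 0.00033), and Spred1, an inhibitor of Ras signalling, by 0.60 ± 0.10 (adjusted p = 0.00471). Other feedback genes and Stat5 targets were lower: the kinase Pim2 by -0.66 ± 0.11 (adjusted p = 0.00496), Pim1 by -0.55 ± 0.10 (adjusted p = 0.00851) and the suppressor Socs3 by -0.74 ± 0.17 (adjusted p = 0.0278, and 0.0615 with slide as a fixed block). Jak2 (0.20, adjusted p = 0.489) and Stat5a (-0.10, adjusted p = 0.843) were not called. Epor and Cish were higher in untreated CD34- cells too, with CD34- minus CD34+ at 2.23 and 1.25. Epo minus CD34- was -0.51 (adjusted p = 0.2) and -0.43 (adjusted p = 0.0266). Pim2, Pim1 and Socs3 were lower without Epo as well (CD34- minus CD34+ -0.79, -0.79 and -0.64). Of 23 genes of the pathway 6 were called higher (26.1%; 3 without array 9 or 10) and 4 lower (17.4%; 1 without array 9, 2 without array 5 or 11), with a median of 0.05 (1, 11 and -0.40 with spike-in scaling, which also ended the calls of Cish, at an adjusted p of 0.121, and Spred1, at 0.322). Pim1 was not called without array 9 (adjusted p = 0.0541), and Socs3 not without arrays 5, 9 or 11 (0.0579, 0.137 and 0.107). Among other receptors, Csf2rb and Csf2rb2, the shared signalling chains of the IL-3 receptor family, rose by 1.34 ± 0.08 (adjusted p = 6.49e-06) and 1.63 ± 0.12 (adjusted p = 3.30e-05). Il18r1, the IL-18 receptor, fell by 0.85 ± 0.11 on the log2 scale (adjusted p = 0.00159). CD34- minus CD34+ was 1.73 in Csf2rb, 2.13 in Csf2rb2 and -0.33 in Il18r1. Beside it, Epo minus CD34- was -0.38 (adjusted p = 0.0296), -0.49 (0.0618) and -0.52 (0.0416).

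Mast cell genes were higher or not called. Of 30 measured 15 were called higher (50%, against 2.8% of all genes) and 0 lower, with a median of 0.62; with spike-in scaling there were 12 and 4, and the median stayed positive at 0.17. Hdc, the enzyme that makes histamine, stood at -2.66, -2.21, -2.63 and -2.79 on the CD34+ arrays and at 2.11, 1.97 and 1.84 on the Epo arrays, 4.55 ± 0.14 higher (adjusted p = 1.89e-07, 23.3-fold). Cma1, the mast cell chymase, stood at 3.27, 3.45, 3.28 and 3.23 against 6.47, 6.21 and 6.25. Its replicates lay within 1 log2 unit in each group, and the difference was 3.01 ± 0.11 (adjusted p = 5.77e-07, 8.03-fold). The proteases Mcpt2 and Mcpt4 rose by 4.89 ± 0.16 (adjusted p = 2.62e-07) and 3.35 ± 0.24 (adjusted p = 2.57e-05), the basophil protease Mcpt8 by 1.61 ± 0.15 (adjusted p = 0.000135) and Prss34 by 1.49 ± 0.18 (adjusted p = 0.000698). These proteases are a family with close copies, and cross-hybridisation between them was not tested. Ms4a2, the beta chain of the IgE receptor, stood at -2.71, -2.96, -2.63 and -3.25 against 0.16, 0.13 and -0.05, 2.97 ± 0.16 higher (adjusted p = 4.06e-06). Csrp3, a LIM protein better known from muscle that is on the list as a gene of mast cells, rose by 4.91 ± 0.19 (adjusted p = 5.83e-07). The list, with Csrp3 on it, was written with earlier results of these data known. Its count of 15 of 30 is therefore a description and not an independent test. The chymase family member Cma2 varied on the Epo arrays, from 0.14 on array 11 to 1.78 on array 9, against -1.36 to -0.95 on the CD34+ arrays (2.09 ± 0.30, adjusted p = 0.00257).

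Other genes of the list did not follow. Cpa3, the mast cell carboxypeptidase, had near-equal levels (7.93 to 8.16 and 7.94 to 8.10, difference -0.03 ± 0.08, adjusted p = 0.939), and Fcer1a, the alpha chain of the IgE receptor, differed by -0.11 ± 0.20 (adjusted p = 0.874). The tryptase Tpsb2 stood at -2.74 to -1.91 on the CD34+ arrays and at -2.60 to -2.07 on the Epo arrays (0.09 ± 0.19, adjusted p = 0.901), and Mrgprb1, a receptor of connective tissue mast cells, differed by 0.07 ± 0.44 (adjusted p = 0.972). These last 2 genes were far higher without Epo: untreated CD34- cells exceeded CD34+ cells by 4.22 in Tpsb2 and 5.65 in Mrgprb1. Epo-treated minus untreated CD34- cells gave -4.13 (adjusted p = 1.20e-06) and -5.57 (adjusted p = 5.01e-05). Genes called higher above were higher in untreated CD34- cells too. CD34- minus CD34+ was 7.09 in Hdc, 4.76 in Cma1, 6.64 in Mcpt2, 7.00 in Mcpt4 and 6.93 in Cma2. Beside it, Epo minus CD34- was -2.54, -1.76, -1.75, -3.66 and -4.84, each called. Prss34 had an Epo minus CD34- difference near 0 (0.04, adjusted p = 0.930). Mitf, a factor of mast cells, rose by 0.89 ± 0.08 (adjusted p = 0.000178) on the probe used, another of its probes gave -0.65, and their mean was not called (0.12, adjusted p = 0.834). The summed level of the 30 genes was 777 to 847 times the 75th percentile on CD34+ arrays, 965 to 1030 on Epo arrays and 1510 to 1630 on CD34- arrays, and 0 of the 30 were below background on every array of a group. The part of other mast cells or basophils in the mixture was not tested.

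The window before Ms4a2 (chr19:11623720-11623969, minus strand, RefSeq, GRCm38.p6) is shown because it held most GATA matches among the windows printed, again in capitals for AGATAA or TGATAA on either strand.
Ms4a2: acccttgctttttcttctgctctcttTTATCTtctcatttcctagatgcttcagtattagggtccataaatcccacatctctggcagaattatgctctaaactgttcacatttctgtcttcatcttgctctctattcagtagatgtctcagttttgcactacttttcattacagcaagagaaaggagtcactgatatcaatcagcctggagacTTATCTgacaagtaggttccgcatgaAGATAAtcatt
The 3 matches begin 224, 37 and 11 bases before the start and do not overlap. Of the 15 mast cell genes called higher 13 had a window and 5 of these held a match, beside 16.6% of all windows and 18.8% of all genes with one.

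**Figure D3:**
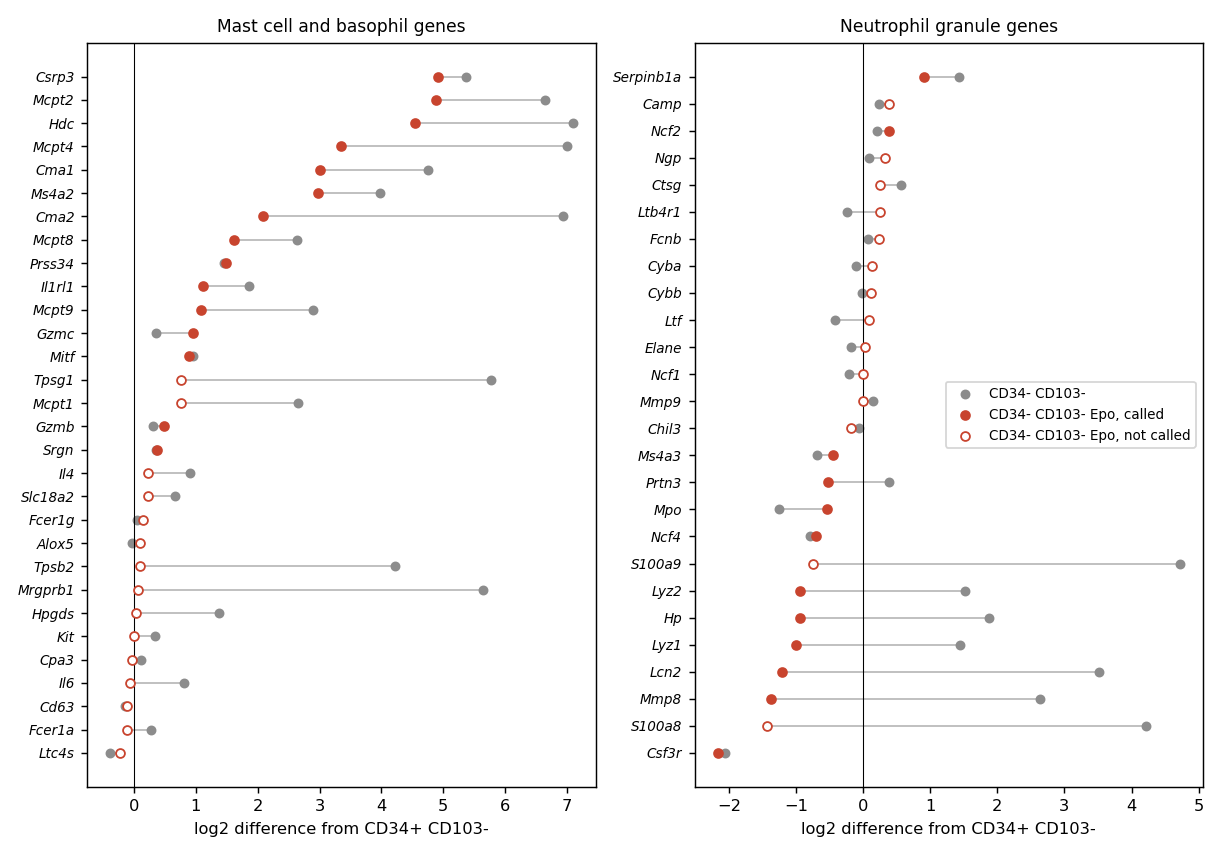
For the 30 mast cell and basophil genes (left) and the 26 neutrophil granule genes (right), the log2 difference from CD34+ CD103- cells is drawn. CD34- CD103- cells without Epo are grey and those with Epo red (filled where called against CD34+, open where not). Both share the CD34+ arrays. On the left 15 red points are filled, all to the right of 0; on the right S100a8, S100a9 and Lcn2 run from above 3 in grey to below 0 in red.

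Some granulocyte genes were lower and others were not called. Gfi1, a zinc finger repressor of neutrophil and lymphoid progenitors, stood at -1.44, -1.46, -1.21 and -1.45 on the CD34+ arrays and at -4.26, -3.60 and -3.94 on the Epo arrays. All Epo arrays lay below all CD34+ arrays, with a difference of -2.54 ± 0.15 (adjusted p = 6.87e-06, 5.83-fold, and -1.67 with normexp). Csf3r, the receptor of the granulocyte factor G-CSF, was above background on all 4 CD34+ arrays (-4.58 to -4.0) and on 1 of 3 Epo arrays (-6.78 to -6.01), a difference of -2.17 ± 0.34 (adjusted p = 0.00424). Cebpa, a factor of granulocyte commitment, was 0.50 lower (adjusted p = 0.0165, and 0.088 without array 9), and the mean of its probes was not called (-0.33, adjusted p = 0.153). Spi1 (PU.1), its partner on the macrophage side, was not called (-0.29 ± 0.12, adjusted p = 0.255), and Id2, an inhibitor of helix-loop-helix factors, was higher by 1.13 ± 0.11 (adjusted p = 0.000164). Of 18 myeloid factors 1 was called higher (2 without array 6) and 4 lower (22.2%, against 2.55% of all genes; 2 without array 9), with a median of 0.09 (1, 7 and -0.36 with spike-in scaling).

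Of 26 neutrophil granule genes 10 were called lower (38.5%; 6 without array 9) and 2 higher (1 without any array but 5), with a median of -0.10 (14, 1 and -0.54 with spike-in scaling). The lysozymes Lyz1 and Lyz2 fell by 1.00 ± 0.08 (adjusted p = 8.99e-05) and 0.95 ± 0.09 (adjusted p = 0.000189), in Lyz2 from 1.17 to 1.33 on the CD34+ arrays to 0.19 to 0.38 on the Epo arrays. Mmp8, neutrophil collagenase, fell by 1.38 ± 0.20 (adjusted p = 0.00243) and the protease Prtn3 by 0.53 ± 0.09 (adjusted p = 0.00599). Mpo, myeloperoxidase, stood at 8.53 to 8.85 against 7.97 to 8.34, a difference of -0.54 ± 0.11 (adjusted p = 0.0215) that was not called without arrays 5, 8, 9 or 11 (0.0615, 0.0506, 0.108 and 0.0689). Serpinb1a, an inhibitor of granule proteases, rose by 0.91 ± 0.07 (adjusted p = 5.15e-05), while Elane (0.02, adjusted p = 0.985), Ctsg (0.25, adjusted p = 0.179) and Ltf (0.08, adjusted p = 0.934) were not called. The calprotectin genes S100a8 and S100a9 spread widely on the Epo arrays, at -3.82, -1.32 and -4.17 and at -2.96, -0.52 and -1.38, with array 10 highest, and were not called (-1.44, adjusted p = 0.186, and -0.75, adjusted p = 0.462). In untreated CD34- cells they stood 4.21 and 4.72 above CD34+ cells, and Epo minus CD34- was -5.66 (adjusted p = 0.000199) and -5.47 (adjusted p = 5.76e-05). Lyz1 and Mmp8 were also higher there than in CD34+ cells, by 1.44 and 2.63, with Epo minus CD34- at -2.44 and -4, each called. Of the 26 genes 10 were called higher and 4 lower in CD34- than in CD34+ cells. Between Epo and CD34- arrays 1 was called higher and 9 lower with Epo. Without array 10 S100a8 was called lower (-2.33, adjusted p = 0.00026). The summed level of the 26 genes was 533 to 642 on CD34+ and 479 to 578 on Epo arrays, and 1 of the 26, Lcn2, was below background on all Epo arrays: its fall was at least 1.25-fold (adjusted p = 0.0128, and 0.056 without array 9 and 0.0564 without array 10). Normexp ended the calls of Csf3r (adjusted p = 0.267), Mmp8 (0.633), Prtn3 (0.225) and Lcn2 (1.00) and left 5 of the 26 lower.

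Wfdc17, a small secreted protein of activated macrophages, gave the largest called fall under the processing used, though not with normexp (-1.36, against -1.67 in Gfi1). It stood at -2.84, -2.40, -3.0 and -2.61 on the CD34+ arrays and at -7.09, -6.00 and -7.36 on the Epo arrays, of which 1 was above background. The groups did not overlap and the difference was -4.11 ± 0.28 (adjusted p = 1.93e-05). In untreated CD34- cells Wfdc17 was higher than in CD34+ cells, by 1.12 (adjusted p = 0.0165), with Epo minus CD34- at -5.22 (adjusted p = 2.93e-06). Ctss, a cathepsin of antigen-presenting cells, fell by 1.43 ± 0.16 (adjusted p = 0.000457), the chemokine Ccl9 by 1.27 ± 0.11 (adjusted p = 0.000113) and Itgam, the CD11b integrin chain, by 1.31 ± 0.19 (adjusted p = 0.00248). Clec10a, a macrophage lectin, went the other way (1.34 ± 0.16, adjusted p = 0.000823): -1.45, -1.34, -1.0 and -1.21 on the CD34+ arrays and 0.46, 0.01 and -0.19 on the Epo arrays, below its mean of 4.30 in untreated CD34- cells. The inhibitory receptor Cd300lf rose by 0.94 ± 0.14 (adjusted p = 0.00319, and 0.0714 with spike-in scaling). Csf1r, the defining receptor of macrophages, was not called (0.16, adjusted p = 0.819). Of 32 macrophage and dendritic cell genes 7 were lower (21.9%) and 2 higher, with a median of -0.27 (18, 1 and -0.72 with spike-in scaling); their summed level was 82.8 to 103 on CD34+ and 76.0 to 85.7 on Epo arrays, with 0 of them below background on every array of a group.

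**Figure D4:**
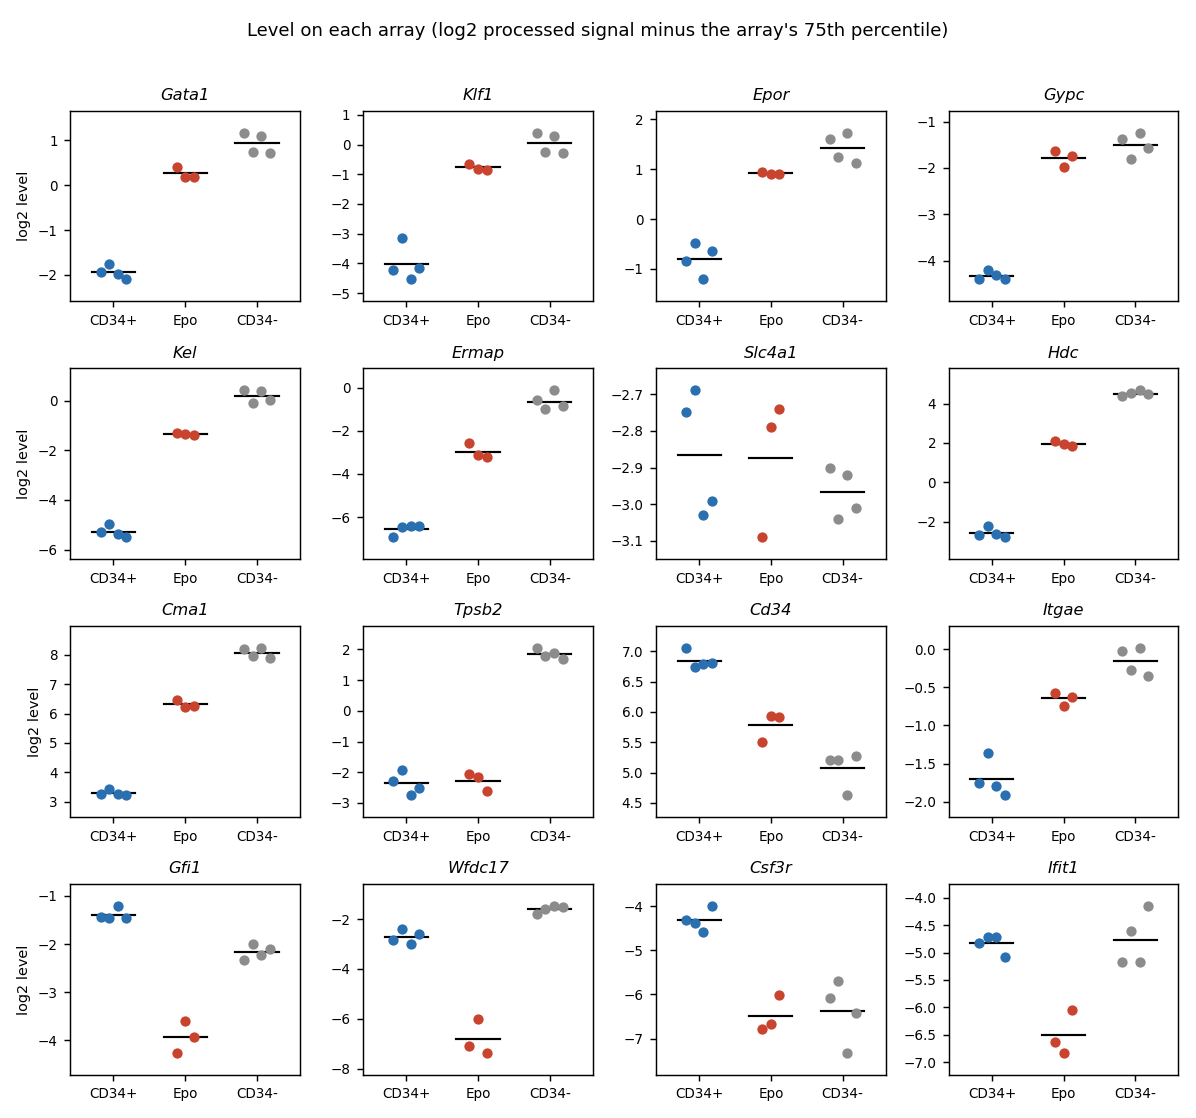
Each panel shows 1 gene, with the log2 level relative to the array's 75th percentile on the y axis for the 4 CD34+ (blue), 3 Epo (red) and 4 CD34- (grey) arrays and a line at each mean; the y axes differ between panels. Gata1, Klf1, Kel and Hdc on the Epo arrays lie far above the CD34+ arrays, Slc4a1 and Tpsb2 overlap with them, and Gfi1, Wfdc17, Csf3r and Ifit1 lie below.

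Megakaryocyte genes rose in part. Pf4, platelet factor 4, stood at 2.91, 2.50, 2.77 and 2.58 on the CD34+ arrays and at 5.02, 4.54 and 4.80 on the Epo arrays, 2.10 ± 0.14 higher (adjusted p = 2.10e-05, 4.27-fold). Its neighbour in function Ppbp, another platelet chemokine, rose by 0.92 ± 0.11 (adjusted p = 0.000719, and 0.0577 with spike-in scaling). Itgb3, the beta chain of the platelet integrin, was lower (-0.56 ± 0.09, adjusted p = 0.0051, and 0.202 for the mean of its probes). Its alpha chain Itga2b (0.12, adjusted p = 0.793) and the von Willebrand receptor chain Gp9 (-0.09, adjusted p = 0.874) were not called. Of 23 genes 7 were higher (30.4%) and 1 lower, with a median of 0.27 (1, 8 and -0.17 with spike-in scaling). Their summed level was 114 to 132 on CD34+ and 163 to 190 on Epo arrays, with 0 below background on every array of a group.

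Among 35 stem and progenitor genes 9 were called lower (25.7%; 4 without array 9) and 4 higher (1 without array 5, 6, 9 or 11, 2 without array 7), with a median of 0.00 (17, 1 and -0.44 with spike-in scaling). Tcf7, a factor of stem and T lineage cells, stood at -0.56, -0.70, -0.42 and -0.44 on the CD34+ arrays and at -2.34, -2.18 and -2.40 on the Epo arrays. It was separated by over 1 log2 unit, with a difference of -1.78 ± 0.10 (adjusted p = 6.29e-06, 3.43-fold). Its other probe gave -0.48 and the mean of both -1.13 (adjusted p = 0.000114). Sox4, a factor of progenitors, fell by 0.85 ± 0.13 (adjusted p = 0.00348), and Meis1, a partner of Hox proteins, by 1.24 ± 0.22 (adjusted p = 0.00852, and 0.0506 without array 9). Runx1, which founds the blood lineage, was not called (-0.06, adjusted p = 0.885). Lymphoid genes gave little: 0 of 31 were higher and 2 lower (6.45%; 0 without array 9, 1 without array 6, 10 or 11), with a median of 0.01 (0, 15 and -0.44 with spike-in scaling), Cd3e of T cells (0.61 ± 0.33, adjusted p = 0.403) and Cd79a of B cells (0.03 ± 0.18, adjusted p = 0.966) were not called, and the summed level of the 31 was 11.4 to 13.6 on CD34+ and 12.2 to 13.3 on Epo arrays.

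Of 31 interferon response genes measured 12 were called lower (38.7%, against 2.55% of all genes) and 0 higher, with a median of -0.44 (24, 0 and -0.88 with spike-in scaling). Ifit1, which binds foreign RNA, stood at -4.82, -4.71, -4.71 and -5.08 on the CD34+ arrays and at -6.63, -6.83 and -6.05 on the Epo arrays, of which 1 was above background. The groups did not overlap and differed by -1.67 ± 0.26 (adjusted p = 0.00428). Isg15, a ubiquitin-like modifier, stood at -3.28, -3.11, -3.76 and -3.57 against -4.63, -4.73 and -4.88 (-1.32 ± 0.16, adjusted p = 0.000823). Ifitm1, a brighter membrane protein, stood at 6.14, 6.22, 6.01 and 6.08 against 4.72, 5.10 and 4.88 (-1.21 ± 0.13, adjusted p = 0.00033). Usp18, which removes Isg15, fell by 0.92 ± 0.08 (adjusted p = 0.000132), Trim30a by 1.31 ± 0.22 (adjusted p = 0.00605) and Cmpk2 by 1.29 ± 0.14 (adjusted p = 0.000528; -0.83 for the mean of its probes). Oas2 was called lower (adjusted p = 3.98e-05) but was below background on all Epo arrays at the probe used, so no fold is given, and its other probe gave -0.27. Stat2, the signal transducer of the pathway, fell by 0.50 ± 0.09 (adjusted p = 0.00849).

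In untreated CD34- cells the picture differed between these genes. CD34- minus CD34+ was -1.21 in Ifitm1, -1.34 in Trim30a and -0.75 in Usp18, beside Epo minus CD34- at 0.00 (adjusted p = 0.999), 0.03 (0.960) and -0.17 (0.325). In Ifit1 and Stat2 it was the reverse: CD34- minus CD34+ was 0.06 and -0.01, and Epo minus CD34- -1.73 (adjusted p = 0.00532) and -0.49 (adjusted p = 0.0154). Oasl2, the largest fall of the list, had unequal CD34+ arrays. It stood at -3.73, -3.76, -1.71 and -3.83 on them, with array 7 high, and at -5.87, -5.35 and -5.24 on the Epo arrays (-2.23 ± 0.46, adjusted p = 0.0196). Without array 7 it stayed called, at a smaller difference (-1.71, adjusted p = 0.0019). Without array 9 (0.101), 10 (0.0579) or 11 (0.0554) Oasl2 was not called. Rsad2, viperin, was not called (-1.60 ± 0.41, adjusted p = 0.0531), but was without array 9 (-2.15, adjusted p = 0.00705) and with slide as a fixed block (-1.72, adjusted p = 0.0267). Most of these genes are dim, and normexp ended the calls of Ifit1 (adjusted p = 0.740), Isg15 (0.144), Oas2 (1.00), Cmpk2 (0.556) and Oasl2 (0.416), leaving 7 of 31 lower. Antigen presentation genes gave 2 of 18 lower (11.1%; 0 without array 9 or 10, 1 without array 5, 6, 8 or 11) and 0 higher, with a median of -0.13 (12, 0 and -0.57 with spike-in scaling). Cd74, the MHC class II invariant chain, was at -8.09 on Epo array 10 and at -2.70 and -2.50 on the others, and was not called with that spot (-2.52, adjusted p = 0.262) or without it (-0.69, adjusted p = 0.138).

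The windows before Ifit1 (chr19:34640639-34640888, plus strand) and Isg15 (chr4:156200819-156201068, minus strand), from RefSeq on GRCm38.p6, are shown for the interferon-stimulated response element, searched as GAAA, any 2 bases, GAAA on both strands, with matches in capitals.
Ifit1: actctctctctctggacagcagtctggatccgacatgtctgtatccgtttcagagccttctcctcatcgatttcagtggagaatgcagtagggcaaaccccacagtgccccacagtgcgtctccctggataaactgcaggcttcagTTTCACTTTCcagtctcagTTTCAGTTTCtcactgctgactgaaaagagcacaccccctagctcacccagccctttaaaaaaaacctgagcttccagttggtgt
Isg15: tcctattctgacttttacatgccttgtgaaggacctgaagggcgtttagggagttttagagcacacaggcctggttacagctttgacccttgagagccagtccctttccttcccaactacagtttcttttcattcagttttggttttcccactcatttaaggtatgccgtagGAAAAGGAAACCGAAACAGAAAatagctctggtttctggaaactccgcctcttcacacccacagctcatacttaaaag
The matches of Ifit1 begin 104 and 85 bases before the start, and those of Isg15 78, 72 and 66 bases, the 3 of them overlapping in 2 places. Of the 12 genes called lower 9 had a window and 5 of these held a match (Ifit1, Igtp, Isg15, Stat2 and Trim30a), beside 2.98% of all windows and 3.46% of all genes with one.

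Proliferation genes hardly moved. Of 36 genes of S phase and mitosis 1 was called higher (2.78%, near the 2.8% of all genes; 0 without any array but 6) and 0 lower, with a median of 0.05 (0, 15 and -0.40 with spike-in scaling). The proliferation marker Mki67 stood at 5.14 to 5.47 and 5.17 to 5.44 (0.06 ± 0.11, adjusted p = 0.861). Of 28 genes of the Myc family and ribosome biogenesis 1 was higher (3.57%; 2 without array 7), Mxd1, an antagonist of Myc (0.53 ± 0.08, adjusted p = 0.00363, and 0.653 with spike-in scaling), and 0 lower, with a median of 0.04 (0, 10 and -0.40); Myc itself was not called (-0.17, adjusted p = 0.533). Of 18 genes listed with the cell cycle inhibitors 3 were higher (16.7%) and 1 lower (0 without array 8, 9 or 11), with a median of 0.00 (0, 5 and -0.44). They were Ccnd2, a cyclin that drives the cycle (0.74 ± 0.12, adjusted p = 0.00426), the retinoblastoma gene Rb1 (0.69 ± 0.09, adjusted p = 0.00123) and the stress gene Gadd45a (0.48 ± 0.08, adjusted p = 0.00533), none called with spike-in scaling (adjusted p = 0.187, 0.278 and 0.830).

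Among genes of cell death and survival, Bcl2l11, the death promoter Bim, fell by 0.54 ± 0.07 (adjusted p = 0.00207), and Bcl2l1, the survival protein Bcl-xL and a known Epo target, was not called (0.05 ± 0.14, adjusted p = 0.935). Of 24 genes of the BCL2 family and of cell death 2 were higher (8.33%; 1 without any array but 6) and 1 lower, with a median of 0.09 (1, 7 and -0.36 with spike-in scaling). The immediate early gene Fos stood at 1.22, 2.28, 1.28 and 1.62 against 3.60, 3.65 and 2.97 (1.81 ± 0.36, adjusted p = 0.0151), and neither it nor Fosb (1.45 ± 0.29, adjusted p = 0.0156) was called without array 9 (0.0782 and 0.0755) or array 10 (0.0649 and 0.0691). Their differences stayed at 1.68 to 2.03 in Fos and at 1.31 to 1.63 in Fosb whichever array was left out. Of 30 genes of immediate early and heat shock response 6 were higher (20%; 3 without array 5, 10 without array 6) and 1 lower (0 without any array but 6), with a median of 0.16 (2, 6 and -0.28 with spike-in scaling); without array 9, and without array 10, 0 were called either way.

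In metabolism, 4 of 27 cholesterol genes were lower (14.8%) and 0 higher, with a median of -0.11 (19, 0 and -0.55 with spike-in scaling), of which 1 was lower without array 9 or 11 and 2 without array 5 or 8. Abcg1, a cholesterol exporter, led them (-0.74 ± 0.08, adjusted p = 0.000582). Of 27 glycolysis genes 5 were higher (18.5%; 2 without array 9 or 10, 3 without array 5, 8 or 11) and 1 lower, with a median of 0.20 (1, 8 and -0.25 with spike-in scaling). Ero1a, an oxidase of the endoplasmic reticulum that responds to low oxygen, rose by 1.11 ± 0.15 (adjusted p = 0.00183) and Slc2a1, the glucose transporter of red cells, by 0.59 ± 0.08 (adjusted p = 0.00123, and 0.444 with spike-in scaling), while Hk3, a hexokinase of myeloid cells, fell by 0.85 ± 0.11 (adjusted p = 0.00156). Of 36 adhesion genes 3 were higher (8.33%) and 7 lower (19.4%; 4 without array 8 or 9), with a median of 0.00 (1, 17 and -0.44). The sialomucin Spn (CD43) rose by 0.45 ± 0.08 (adjusted p = 0.00709, and 0.981 with spike-in scaling). Of 33 cytokine receptors 4 were higher (12.1%) and 6 lower (18.2%), with a median of -0.12 (4, 21 and -0.57).

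**Figure D5:**
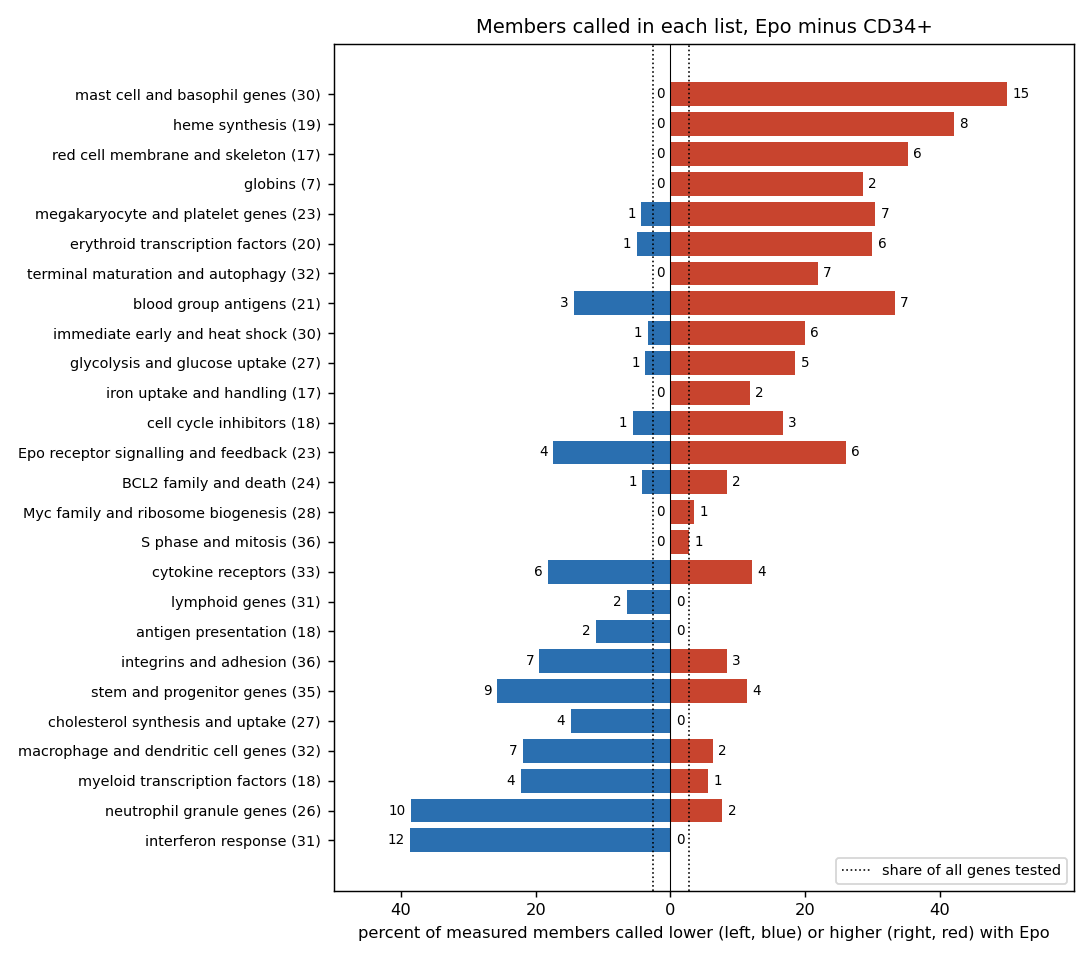
For each of 26 gene lists the bars give the percent of measured members (their number in parentheses) called higher (right, red) or lower (left, blue) in Epo-treated than in CD34+ cells, with the counts at the bar ends and dotted lines at the shares of all genes, 2.8% and 2.55%. Mast cell and heme genes have the longest bars to the right and interferon and neutrophil genes to the left, while S phase genes lie at the dotted line; with spike-in scaling each of the 26 lists has more lower calls than drawn here.

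Further genes with large differences were on none of the 26 lists. Samd14, an erythroid protein that works with Kit signalling, stood at -2.70, -2.52, -3.09 and -2.83 on the CD34+ arrays and at 0.43, 0.10 and 0.17 on the Epo arrays, 3.02 ± 0.20 higher (adjusted p = 1.47e-05). It stood higher in Epo-treated than in untreated CD34- cells by 0.64, a difference that was not called (adjusted p = 0.128). Ces2g, a carboxylesterase, was not above background on any CD34+ array and was at -3.87, -4.45 and -4.11 on the Epo arrays, at least 5.77-fold higher (adjusted p = 0.000126, and 0.233 with normexp). Rec114, a meiosis gene, rose by 3.20 ± 0.17 on 1 probe (adjusted p = 3.57e-06) and by -0.05 on the other. Among the falls, Rab3il1, an exchange factor of vesicle traffic, stood at -1.98, -1.42, -1.96 and -1.16 against -3.75, -3.30 and -3.42 (-1.86 ± 0.24, adjusted p = 0.00134). Ifi204, an interferon-inducible DNA sensor outside the list above, fell by 1.90 ± 0.20 (adjusted p = 0.00033; -1.25 for the mean of its probes) and the nucleotidase Entpd3 by 1.65 ± 0.15 (adjusted p = 0.000155). Dimmer genes whose calls were lost with normexp were the sodium channel Scn11a (-1.85 ± 0.17, adjusted p = 0.000134, and 0.0601), Tmem273 (-2.02 ± 0.30, adjusted p = 0.00301, and 0.0865) and Wdcp, which was off on all Epo arrays and at least 2.12-fold lower (adjusted p = 0.00611, and 1.00).

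Further large falls lost their call when single arrays were left out. Chdh, choline dehydrogenase, was off on all Epo arrays and at least 1.51-fold lower (adjusted p = 0.0342), and was not called without arrays 6, 10 or 11 (0.0684, 0.136 and 0.129). With normexp the call of Chdh was lost as well (-0.23). Epx, eosinophil peroxidase, fell by 1.68 ± 0.38 (adjusted p = 0.0286), stayed at -1.88 to -1.50 whichever array was left out, and was not called without arrays 7 (0.0708), 8 (0.0775), 9 (0.117), 10 (0.11) or 11 (0.0615). Gcnt2, the enzyme of the I blood group antigen, was off at the probe used on all Epo arrays and on 2 of 4 CD34+ arrays. Another of its probes was above background in the Epo group. Its call (adjusted p = 0.0266) has no fold and was lost without arrays 5 (0.0611), 6 (0.056), 8 (0.0557), 9 (0.122) or 11 (0.105). The call was also lost with normexp (-0.09) and without a filter on dim probes (0.01, adjusted p = 0.991).

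The first and second array sets, which share no arrays with the third, gave 2 other comparisons of EML populations. EryCP minus Sca1hi cells is another step at which CD34 is lost, without Epo, and Cd34 was 5.14 lower there (log2 difference -5.14, adjusted p = 1.99e-05). Of the 746 genes called higher here and tested there, 364 (48.8%) were called higher there and 6 (0.804%) lower, where 3.25% of all genes tested in both were called higher. Of the 680 called lower, 344 (50.6%) were lower there and 7 (1.03%) higher, against 3.33% of all genes. The genes that matched made up 43.1% of the 844 called higher and 39.8% of the 864 called lower there. The values of named genes lay in the same direction in Gata1 (3.53), Klf1 (4.60), Kel (5.56), Hdc (7.68), Gfi1 (-2.66), Ifitm1 (-1.66) and Wfdc17 (-5.00). Pf4 had 1.95, Ly6a -6.39, and Cmpk2, lower here, 0.00.

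Ediff minus EryCP repeat is the other Epo-driven differentiation, and it collected cells that had lost both CD34 and cKit. Far more of the genome moved there, 38.7% of genes higher and 17.1% lower among those tested in both. Of the 743 genes called higher here and tested there, 266 (35.8%) were higher there and 327 (44.0%) lower, and of the 635 called lower, 318 (50.1%) were lower there and 148 (23.3%) higher. These matches were 2.81% of the 9476 called higher and 7.57% of the 4200 called lower there. Erythroid genes rose in both: Klf1 (3.03 there), Epor (3.12), Rhag (4.66), Hba-a1 (6.55) and Alas2 (7.14). The late genes that were level here rose there, Slc4a1 by 9.73, Ank1 by 7.62 and Hba-x by 10.69, as did Tfrc by 2.50. Mast cell genes were opposite, higher here and lower there: Hdc (-7.47), Cma1 (-5.56), Mcpt2 (-5.93) and Ms4a2 (-4.37), as was Gata2 (-3.49). Kit, level here, was 3.32 lower there (log2 difference -3.32, adjusted p = 7.41e-06). Sets were normalised and fitted separately, so these values stand side by side and the difference between comparisons was not tested.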

How the data were processed

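RNA of sorted EML cell fractions was hybridised to 1-colour Agilent arrays, and the values of the third array set were deposited as probe intensities made with Agilent Feature Extraction 10.7.1.1, per the file headers. The deposited processed intensity was background-subtracted and not scaled between arrays, per the file headers. A deposited table of log2 values does not state its scale or centring. Its column medians were 7.28 to 7.29, and its columns correlated with the log2 processed signal at r of 0.9998 to 0.9999. This table served as an alternative.

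Each array held 43379 spots beside 1639 control spots. Control and outlier spots were dropped and the others averaged by probe, which gave 41174 probes, 27071 of them named (26690 through the newer and 381 through the older annotation). Log2 signals were centred on each array's 75th percentile. A probe was kept where at least 0.5 of its spots were well above background on every array of at least 1 group, and the brightest probe stood for a gene. Groups were compared with limma 3.58.1 (R 4.3.3, data.table version 1.17.8) over the 11 arrays of the set with 8 residual degrees of freedom, 2-sided, with Benjamini-Hochberg adjustment over all genes tested, a design the labels do not state. The number of arrays limits the precision.

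Genes named were the sorting and lineage markers, the 15 largest called rises and falls whose groups did not overlap, up to 4 called members of each list and direction, and textbook members given as not called. Of these, called genes that lost the call without 1 array are mostly given in counts, and a few genes are not reported here. The comparison, the genes and the lists were chosen with earlier results of these data known. The files hold no mean signal, so normexp (offset 50) was run on the median signal instead. Alternatives covered background, scaling, filter, probes, slide, samples and moderation. Promoters came from RefSeq tables, 32851 windows of 250 bases.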

Additional observations from a re-analysis of the deposited data

Results flagged for a closer look

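Among the 4 CD34+ arrays, 9 of the 150 genes followed one by one had an array far from the 3 others, where chance gives about 1 in 20. On array 5, Ermap stood at -6.93 (others -6.45 to -6.40, all below background), Pim2 at 2.04 (others 1.89 to 1.91) and Tspan33 at -5.91 (others -5.49 to -5.43). On array 6, Cma2 stood at -0.95 (others -1.36 to -1.32), Ctss at -1.32 (others -1.60 to -1.55), Dusp1 at 0.64 (others -0.11 to -0.04) and Socs3 at 1.04 (others 0.54 to 0.62). On array 7, Gfi1 stood at -1.21 (others -1.46 to -1.44) and Oasl2 at -1.71 (others -3.83 to -3.73). Groups of 3 arrays were not examined in this way, so the Epo arrays have no such entry.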

How the results depend on the processing

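The count of 1463 called genes (765 higher, 698 lower) stayed within 1.5 times under quantile and median scaling, the deposited table, other filters, the mean of probes, slide as a fixed block, the omission of slide 3 and moderation with trend. It moved to 869 (460 and 409) with normexp, 957 (509 and 448) with only the 7 arrays, 2345 (1260 and 1085) with slide as a random block and 9456 (172 and 9284) with spike-in scaling. The cause was not tested. Leaving out 1 array gave 638 to 1357 calls (358 to 701 higher, 280 to 656 lower). Of the 110 genes called among those followed, 91 held in each such fit, 86 with normexp, 93 with spike-in scaling, 109 with slide as a fixed block and 102 with the 7 arrays. Ank1 turned to -0.41 with spike-in scaling and Gcnt2 to 0.01 without a filter on dim probes. Single slides gave values without a test. No paired analysis was possible because the running numbers of the titles are not shared between the groups. Genes near background are limited by signal over background.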

Other observations

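A few genes followed in the comparison are not described above. Tpsg1, a tryptase of mast cells, stood at -3.90 to -3.18 on the CD34+ arrays, at -3.59 to -2.08 on the Epo arrays and at 2.19 to 2.43 on the CD34- arrays. Its Epo and CD34+ arrays overlapped (0.76 ± 0.30, limma adjusted p = 0.211), while the difference of Epo from CD34- arrays was -5.02 ± 0.30 (adjusted p = 6.44e-06). Vwf, the von Willebrand factor of megakaryocytes and endothelium, followed the same order: -1.65 to -0.93, -0.98 to -0.78 and 1.43 to 1.89. It was not called against CD34+ cells (0.46 ± 0.17, adjusted p = 0.19) and fell by 2.54 on the log2 scale against CD34- cells (adjusted p = 1.54e-05).

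Bcl6, a transcriptional repressor, lay at 0.76 to 1.00 on the CD34+ arrays, at 0.08 to 0.41 on the Epo arrays and at 0.13 to 0.29 on the CD34- arrays. Its difference from CD34+ cells was -0.59 ± 0.10 (adjusted p = 0.00673), and Epo and CD34- arrays differed by 0.05 (adjusted p = 0.827). Hlf, a factor of haematopoietic stem cells, differed by -0.54 ± 0.10 (adjusted p = 0.0119). It was not called without array 9 (0.0542) or without slide 3 (0.0597).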
